A study of Mus musculus with 8 samples.

Results

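Cytosolic ribosomal protein genes encode the proteins of the ribosome that translates nuclear mRNAs. They were taken as the rows of the mRNA table whose mouse gene symbol is Rpl or Rps followed by a number (with a, x or l where present), by p0 to p2, or by a. This rule found 80 genes among 29619, and 77 of the 80 passed the filter on low values used throughout, a level of 1 FPKM or more (fragments scaled to transcript length and to the library total) in at least 2 of the 4 columns. The 77 were 46 genes of the large subunit (Rpl and Rplp) and 31 of the small subunit (Rps and Rpsa). The 3 that failed were the paralogues Rpl3l, Rpl10l and Rpl39l, which are known mainly from striated muscle and testis.

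RNA came from whole mouse embryos of 4 genotypes, and the mRNA was selected with oligo(dT). PKI, MKI and HOMO embryos carried an Easi-CRISPR insertion of 3 polyadenylation cassettes, which stop transcription, in the Gtl2 (Meg3) promoter of the imprinted Dlk1-Dio3 domain. PKI embryos had it on the paternal copy, MKI embryos on the maternal copy and HOMO embryos on both copies, and WT embryos had it on neither. The design text gives embryonic day 12.5 for every group, whereas the titles give slightly later days for PKI, MKI and HOMO, in that order; if the titles are right, age and genotype cannot be told apart. How many founder lines there were, and whether embryos were pooled, is unstated in the sources used here. Gtl2 itself was not analysed here.

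The labels describe 8 libraries, 2 per genotype, but the table has a single column for each genotype. No spread within a genotype can be had from it, so each difference below is between single columns and carries no p-value. Differences are on the log2(FPKM + 0.5) scale, which understates the change of low genes, with the knock-in column minus the WT column unless stated otherwise. Counts use a larger threshold, 2-fold, and a smaller one, 25% higher or, for the same ratio the other way, 20% lower. The percentage of all tested genes past a threshold is given beside a count as its background. The depth behind the FPKM is unknown. The MKI column stood apart over the whole table, with 19.1% of 13279 tested genes 2-fold or more lower than WT, against 1.45% in PKI and 0.783% in HOMO. The Y-linked genes Ddx3y, Eif2s3y, Kdm5d and Uty had values from 7.12 to 29.7 FPKM in PKI, MKI and HOMO and 0 in WT, so in comparisons with WT sex and genotype cannot be told apart either. Markers of liver, red cells, neurons, epidermis, muscle and cartilage were above 0 in every column.

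Each ribosome carries a single copy of nearly every ribosomal protein, and the proteins are built into the particle together with ribosomal RNA in the nucleolus. In mammals the genes are scattered over the chromosomes, are expressed in every dividing cell and are rich in intronless copies elsewhere in the genome. Their mRNAs begin with a run of pyrimidines, the 5′ terminal oligopyrimidine (TOP) tract, through which mTOR and Larp1 control their translation. Loss of a single copy of one of several members causes a failure of red cell formation in humans (Diamond-Blackfan anaemia) and skeletal or growth defects in mice.

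As a class these genes were higher in PKI, unevenly lower in MKI and close to WT in HOMO. In PKI the median log2 difference from WT over the 77 genes was 0.49, with quartiles of 0.31 and 0.67, beside a median of -0.07 over all 13279 tested genes. In MKI it was -0.42, with quartiles of -1.16 and 0.17, beside -0.11 over all tested genes. In HOMO it was 0.08, with quartiles of -0.10 and 0.20, beside -0.06 over all tested genes. The SD among the members was 0.33 in PKI, beside 0.40 over all tested genes, and 0.98 in MKI, beside 0.82. The wider spread in MKI was thus shared by the whole table. Among 1581 other tested genes at 30 FPKM or more on average the MKI SD was 0.96. In HOMO the SD was 0.59, and a single gene, Rpl29, lay far from the others. Relative to the median of all tested genes, which other scalings of the columns shifted by up to 0.23 in MKI, the members lay 0.56 higher in PKI and 0.31 lower in MKI (-0.31); after quantile normalization these were 0.22 and -0.35.

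**Figure D1:**
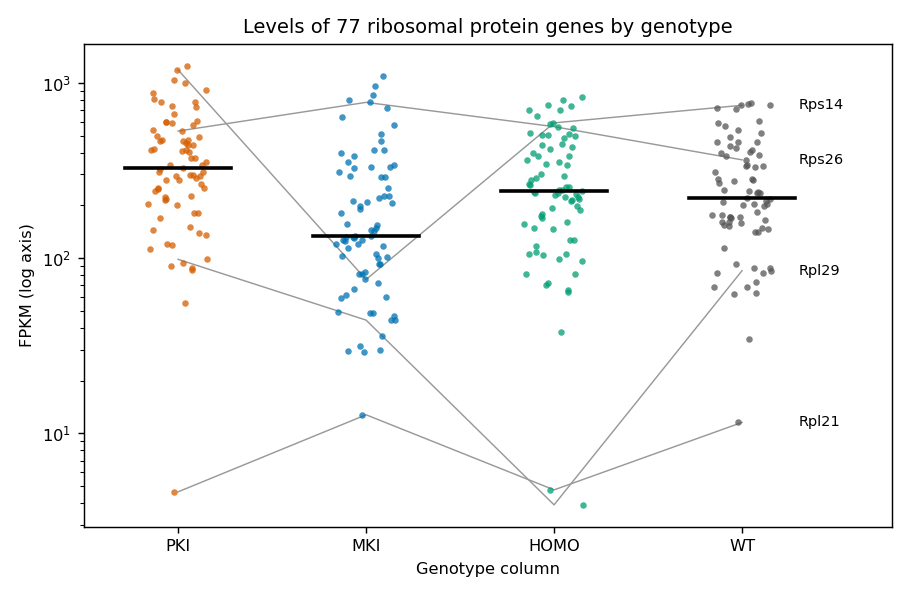
FPKM of the 77 ribosomal protein genes that passed the filter (points, log axis) in the PKI, MKI, HOMO and WT columns; the black bar is the median over genes, and grey lines join the values of 4 named genes. The medians were 329 FPKM for PKI, 134 FPKM for MKI, 241 FPKM for HOMO and 219 FPKM for WT; Rps14 in MKI and Rpl29 in HOMO lie far below their points in the other columns.

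Together the 80 genes made up 10.3% of all FPKM in PKI, 7.17% of it in MKI, 8.20% in HOMO and 7.85% in WT. PKI was the highest of the 4 and MKI the lowest. Without Rpl29 and Rps14, each very low in a single column, the shares became 9.87% for PKI, 7.12% for MKI, 7.99% for HOMO and 7.55% for WT, in the same order. Large-subunit genes summed to 16685 FPKM in PKI, 8994 FPKM in MKI, 12419 FPKM in HOMO and 12089 FPKM in WT. Small-subunit genes summed to 13935.5 FPKM in PKI, 8939.6 FPKM in MKI, 10742 FPKM in HOMO and 9919 FPKM in WT. Of the 100 genes with the highest FPKM in a column, 33 were members in PKI, 26 were in MKI, 28 in HOMO and 28 in WT. In whole embryos, fewer cells of a type and less RNA per cell cannot be told apart.

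Levels, which are per length in FPKM, differed widely among the members. The tested genes ran from 4.64 to 1249 FPKM in PKI, 12.77 to 1101 FPKM in MKI, 3.91 to 832 FPKM in HOMO and 11.6 to 768 FPKM in WT. The highest in WT was Rpl26, a large-subunit protein that also binds p53 mRNA, at 1249 FPKM in PKI, 964 FPKM in MKI, 802 FPKM in HOMO and 768 FPKM in WT. The X-linked Rps4x was at 993 FPKM in PKI, 853 FPKM in MKI, 703 FPKM in HOMO and 758 FPKM in WT. Rps14 and Rpl10, described below, were also among the 5 highest in WT. Each of these named genes was highest in PKI.

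The lowest tested members in WT were Rpl21, Rps20, Rpl36a, Rpl23 and Rpl22. Rpl36a, also X-linked, was at 90.8 FPKM in PKI, 81.4 FPKM in MKI, 70.1 FPKM in HOMO and 62.6 FPKM in WT. Rpl23, which can bind Mdm2, was at 87.4 FPKM in PKI, 92.8 FPKM in MKI, 65.6 FPKM in HOMO and 63.4 FPKM in WT. Both were above WT in every knock-in column. Rpl21, at 11.6 FPKM in WT, was the member just inside the filter, and Rpl39l, at 0.21 FPKM in WT, the one just outside it. Rpl10l had 0.25 FPKM in HOMO and was listed at 0 in the other columns, and Rpl3l had 0.041 FPKM in WT and was listed at 0 in the knock-in columns. Close copies of many members exist, and the treatment of reads that match several copies is unstated in the sources used here, so levels of single members are uncertain.

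**Figure D2:**
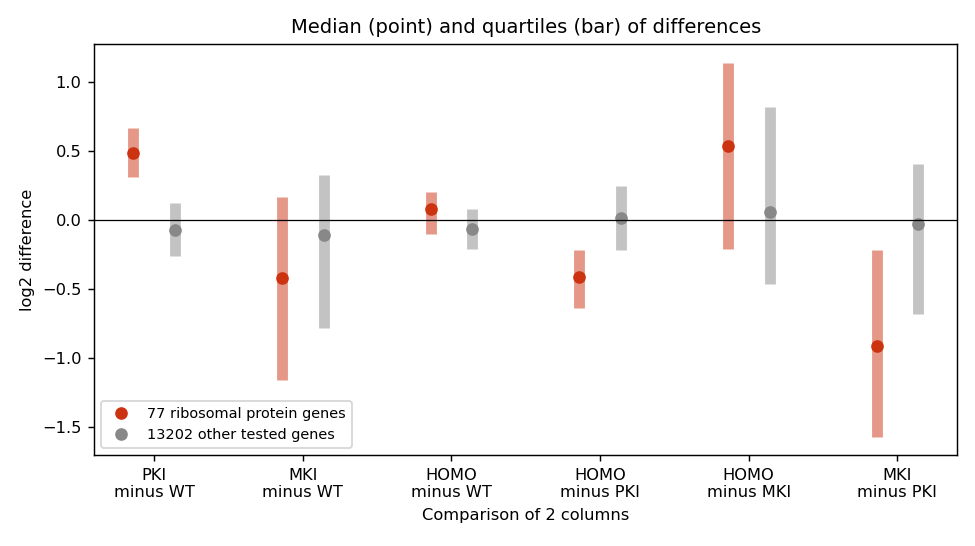
Median (point) and quartiles (bar) of log2 differences for the 77 ribosomal protein genes (red) and the 13202 other tested genes (grey) in 6 comparisons of single columns. The red median lies at 0.49 for PKI minus WT and at -0.41 for HOMO minus PKI, and the red bar is widest in the 3 comparisons with MKI.

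In PKI, 74 of the 77 genes lay above WT, where 40.5% of all tested genes did. Most tested genes are far less abundant than the members. Among the 1581 tested genes outside the set at 30 FPKM or more on average, 56.5% lay above WT and 15.6% were higher by 25% or more. At the smaller threshold, 56 were higher (background 10.2%) and 2 were lower (background 20.1%), while 19 lay between. Quantile normalization left 58 above WT and 26 higher by 25% or more. Over all tested genes it gave 1817 higher and 1888 lower at this threshold, against 1360 and 2666 on the deposited scale. On the deposited scale 2 members were 2-fold higher (background 0.700%) and 1 was 2-fold lower (background 1.45%). All 31 small-subunit genes were above WT, with a median of 0.56, and 43 of 46 large-subunit genes were, with a median of 0.46.

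The 5 genes with the largest differences in PKI began with Rps25, a small-subunit protein needed for translation from some internal ribosome entry sites. It stood at 442 FPKM in PKI, 464 FPKM in MKI, 382 FPKM in HOMO and 183 FPKM in WT, so that WT was the lowest column and all 3 knock-in columns were at least 2-fold above it. Rpl39, a very small basic protein of the exit tunnel, was at 322 FPKM in PKI, 114 FPKM in MKI, 117 FPKM in HOMO and 155 FPKM in WT, and only PKI was above WT. Rpl13a, which can leave the ribosome to silence inflammatory mRNAs, was at 1042 FPKM in PKI, 126 FPKM in MKI, 583 FPKM in HOMO and 537 FPKM in WT; PKI was the highest column and MKI the lowest. The ubiquitin fusion gene Rps27a was at 463 FPKM in PKI, 353 FPKM in MKI, 285 FPKM in HOMO and 243 FPKM in WT, with every knock-in column above WT. Rps7, another Mdm2-binding protein, was at 725 FPKM in PKI, 416 FPKM in MKI, 432 FPKM in HOMO and 387 FPKM in WT, where MKI and HOMO lay near WT.

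The 3 genes below WT in PKI were all of the large subunit. Rpl21, mutated in an inherited form of human hair loss, was at 4.64 FPKM in PKI, 12.77 FPKM in MKI, 4.76 FPKM in HOMO and 11.6 FPKM in WT. It thus formed 2 levels, PKI with HOMO below MKI with WT, and it was the one gene 2-fold lower in PKI. Rpl30, which also controls its own splicing in yeast, was at 119.7 FPKM in PKI, 133 FPKM in MKI, 104 FPKM in HOMO and 169 FPKM in WT, with WT the highest column. Rpl18 was at 242 FPKM in PKI, 127 FPKM in MKI, 281 FPKM in HOMO and 269 FPKM in WT, where PKI was 0.15 below WT on the log2 scale. Next in order were Rps2, at the mRNA entry channel, and Rpl4, with log2 differences of 0.06 and 0.16 in PKI.

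Several other values differed along with these genes in PKI. Long genes were lower in PKI over the whole table, with a Spearman's rho of -0.28 between log2 difference and RefSeq gene span over 12333 genes, which are not independent replicates, and ribosomal protein genes are short, with a median span of 3175 bases beside 24999 over all tested genes. Within the 77 genes the same rho was -0.11. Summed over 10 hepatocyte markers the level was 246 FPKM in PKI, against 680 FPKM in WT, with 10 of 10 lower. Over 14 definitive erythroid markers it was 3639 FPKM in PKI, against 6349 FPKM in WT, with 14 of 14 lower. The 3 embryonic globins went the other way, at 4714 FPKM in PKI against 2954 FPKM in WT, with 2 of 3 higher. Over 8 epidermal markers the level was 92.7 FPKM in PKI, against 50.1 FPKM in WT, with 7 of 8 higher. Neuronal (10 of 10) and cartilage markers (6 of 6) were lower in PKI, where 40.5% of all tested genes lay above WT. No marker of these lists was at 0 in any column. The part of span and of tissue makeup in the ribosomal protein difference was not tested.

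In MKI the same genes formed a long, graded series. Of the 77, 51 lay below WT and 26 above, where 44.6% of all tested genes lay above. Among the 1581 other genes at 30 FPKM or more on average, 54.6% lay above and 14.9% were 2-fold or more lower. At 2-fold or more, 23 were lower (background 19.1%) and 4 were higher (background 1.22%). At the smaller threshold, 46 were lower (background 41.0%) and 17 higher (background 25.4%). After quantile normalization the split at the smaller threshold was 27 higher and 36 lower, and after rescaling each column to the same total it was 21 higher and 35 lower. All tested genes shifted as well, from 3372 higher and 5450 lower on the deposited scale. They became 5171 higher and 4223 lower after quantile normalization, and 4642 higher and 4724 lower at equal totals. Large-subunit genes had a median of -0.52 in MKI and small-subunit genes one of -0.28, with quartiles of -1.35 and 0.32 in the small subunit.

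**Figure D3:**
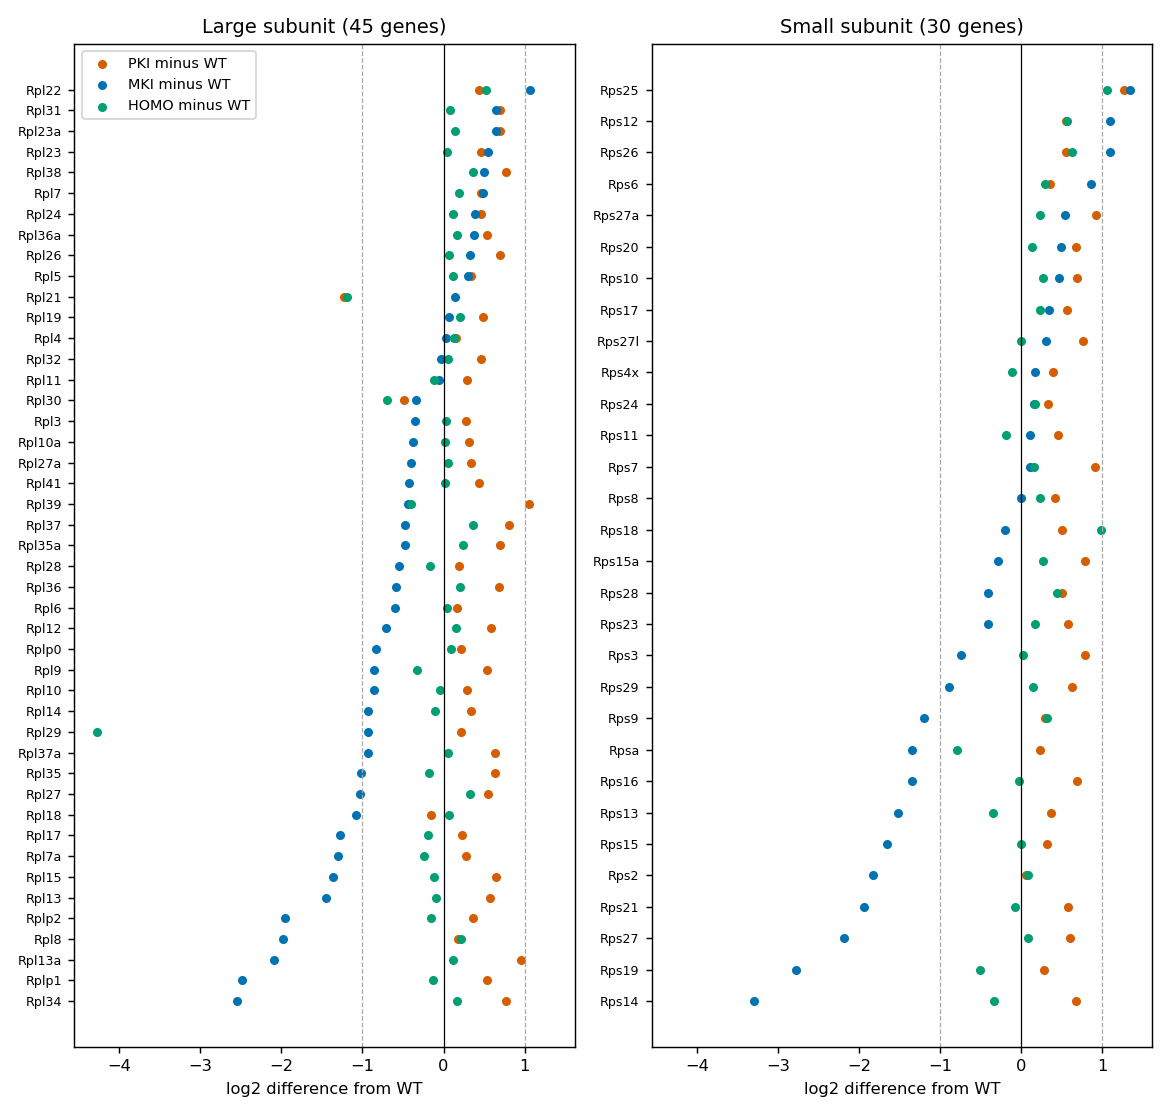
Log2 difference from WT (x axis) of 45 large-subunit and 30 small-subunit genes in PKI (orange), MKI (blue) and HOMO (green), sorted by the MKI value; dashed lines mark 2-fold. The MKI points run from -3.29 for Rps14 to 1.34 for Rps25, PKI points lie right of 0 for 72 of these 75 genes, and Rpl29 stands alone at -4.27 in HOMO.

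The 2 lowest were small-subunit genes tied to blood disease. Rps14 (chromosome 18, 60774596 to 60778546, GRCm38), whose loss of a copy causes the anaemia of the human 5q- syndrome, was at 1185 FPKM in PKI, 75.5 FPKM in MKI, 591 FPKM in HOMO and 745 FPKM in WT. PKI was its highest column, and MKI held 0.101 of the WT level. Its neighbours Synpo, Ndst1 and Tcof1 were lower in MKI too, with log2 differences of -1.20, -1.02 and -0.83. Low neighbours were not particular to Rps14. Rps25, the highest member in MKI at 1.34, had the neighbours Slc37a4, Trappc4 and Ccdc84 at -1.15, -1.22 and -0.31. Rps19 (chromosome 7, 24884592 to 24889811), the gene most often mutated in Diamond-Blackfan anaemia, was at 409 FPKM in PKI, 48.3 FPKM in MKI, 236 FPKM in HOMO and 336 FPKM in WT. MKI was again far below the other columns, and HOMO also lay below WT, by 0.51 on the log2 scale. Rpl34 was at 295 FPKM in PKI, 29.0 FPKM in MKI, 194 FPKM in HOMO and 172 FPKM in WT. The zinc-finger protein gene Rps27 was at 308 FPKM in PKI, 44.4 FPKM in MKI, 216 FPKM in HOMO and 203 FPKM in WT. With the stalk gene Rplp1 these were the 5 lowest in MKI. In none of these 5 was a second knock-in column 2-fold away from WT.

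The stalk, the flexible arm of the large subunit that recruits translation factors, consists of Rplp0 and dimers of Rplp1 and Rplp2. Rplp1 was at 664 FPKM in PKI, 81.5 FPKM in MKI, 419 FPKM in HOMO and 458 FPKM in WT. Rplp2 was at 181 FPKM in PKI, 36.0 FPKM in MKI, 127 FPKM in HOMO and 141 FPKM in WT. Rplp0, their anchor, was at 604 FPKM in PKI, 289.7 FPKM in MKI, 554 FPKM in HOMO and 518 FPKM in WT. All 3 were higher in PKI and lower in MKI than WT, but by different amounts in MKI, with log2 differences of -2.48, -1.96 and -0.84.

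Core proteins around the catalytic centre and the exit tunnel differed among themselves as well. Rpl8, close to the peptidyl transferase centre, was at 472 FPKM in PKI, 105 FPKM in MKI, 483 FPKM in HOMO and 417 FPKM in WT, with MKI alone below WT. Rpl3, which reaches into the same centre, was at 597 FPKM in PKI, 385 FPKM in MKI, 504 FPKM in HOMO and 493 FPKM in WT, and Rpl10 at 879 FPKM in PKI, 398 FPKM in MKI, 700.4 FPKM in HOMO and 720.5 FPKM in WT. Rpl4, which lines the tunnel, was at 452 FPKM in PKI, 414 FPKM in MKI, 445 FPKM in HOMO and 405 FPKM in WT, where the MKI and WT levels were close. Rpl13 was at 419 FPKM in PKI, 103 FPKM in MKI, 263 FPKM in HOMO and 281 FPKM in WT. Rpl15 was at 250.4 FPKM in PKI, 61.6 FPKM in MKI, 148 FPKM in HOMO and 160.0 FPKM in WT. Both were more than 2-fold lower in MKI.

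Other large-subunit genes 2-fold lower in MKI, besides Rpl13a and Rpl18, included Rpl7a, Rpl17, Rpl27 and Rpl35. Rpl7a, one of the larger members, was at 180.1 FPKM in PKI, 60.2 FPKM in MKI, 126 FPKM in HOMO and 149 FPKM in WT. Rpl17, at the mouth of the exit tunnel, was at 85.2 FPKM in PKI, 29.8 FPKM in MKI, 63.8 FPKM in HOMO and 72.8 FPKM in WT. In both, HOMO lay slightly below WT and PKI slightly above. Rpl27 was at 298 FPKM in PKI, 99.9 FPKM in MKI, 256 FPKM in HOMO and 204 FPKM in WT, with HOMO slightly above WT. Rpl35, near the tunnel exit, was at 374 FPKM in PKI, 118 FPKM in MKI, 212 FPKM in HOMO and 239.7 FPKM in WT. The 13 large-subunit genes past 2-fold in MKI had log2 differences from -2.55 for Rpl34 to -1.02 for Rpl35.

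Among small-subunit genes, Rpsa, also called the laminin receptor, was at 536 FPKM in PKI, 179.8 FPKM in MKI, 265 FPKM in HOMO and 458 FPKM in WT, so that both columns with a maternal insertion were below WT. Rps2 was at 738 FPKM in PKI, 199 FPKM in MKI, 747 FPKM in HOMO and 707 FPKM in WT. Rps15 was at 497 FPKM in PKI, 126 FPKM in MKI, 396 FPKM in HOMO and 398 FPKM in WT. In Rps2 and Rps15 the HOMO and WT levels were close. Rps21 was at 170.2 FPKM in PKI, 29.3 FPKM in MKI, 108 FPKM in HOMO and 114 FPKM in WT. Rps13 was at 119 FPKM in PKI, 31.6 FPKM in MKI, 72.0 FPKM in HOMO and 92.1 FPKM in WT. Rps21 and Rps13 lay below the median member in every column. Rps16 was at 278 FPKM in PKI, 67.1 FPKM in MKI, 169 FPKM in HOMO and 172 FPKM in WT. Rps9 was at 339.6 FPKM in PKI, 120.0 FPKM in MKI, 345 FPKM in HOMO and 277 FPKM in WT. All of these were more than 2-fold lower in MKI than WT, and none was below WT in PKI.

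Other members were higher in MKI than WT. Rps12, needed in flies for competition between cells with unequal ribosomes, was at 494 FPKM in PKI, 716 FPKM in MKI, 495 FPKM in HOMO and 336 FPKM in WT. Rps26, which contacts the mRNA upstream of the start codon and is mutated in some patients with Diamond-Blackfan anaemia, was at 531 FPKM in PKI, 774 FPKM in MKI, 562 FPKM in HOMO and 364 FPKM in WT. Rpl22, an RNA-binding protein whose loss impairs T-cell development in mice, was at 93.8 FPKM in PKI, 145 FPKM in MKI, 99.5 FPKM in HOMO and 68.8 FPKM in WT. With Rps25 these were the 4 genes 2-fold higher in MKI, and in each of them PKI and HOMO were above WT too. Rps6, the substrate of the S6 kinases, came next at 774 FPKM in PKI, 1101 FPKM in MKI, 741 FPKM in HOMO and 605 FPKM in WT, with MKI 0.86 above WT on the log2 scale. Rps20 was at 55.4 FPKM in PKI, 48.5 FPKM in MKI, 37.8 FPKM in HOMO and 34.4 FPKM in WT and Rpl31 at 341 FPKM in PKI, 331 FPKM in MKI, 222 FPKM in HOMO and 211 FPKM in WT, with MKI and PKI both above WT.

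The 5S RNA particle proteins, which bind Mdm2 when ribosome assembly is disturbed, lay closer to WT in MKI than the smaller threshold on the deposited scale. Rpl5, at a log2 difference of 0.30, was just inside that threshold, and Rpl11 was at -0.05. Rpl5 was at 299 FPKM in PKI, 290.3 FPKM in MKI, 256 FPKM in HOMO and 236 FPKM in WT, and Rpl11 at 287 FPKM in PKI, 226 FPKM in MKI, 216 FPKM in HOMO and 234 FPKM in WT. Rps3, at the mRNA entry channel, was at 416 FPKM in PKI, 144 FPKM in MKI, 244 FPKM in HOMO and 241 FPKM in WT, and MKI was 0.75 below WT on the log2 scale. Of the members linked to selected mRNAs, Rpl38, needed in mice for translation of Hox mRNAs, was at 251 FPKM in PKI, 206 FPKM in MKI, 188 FPKM in HOMO and 147 FPKM in WT, above WT in every knock-in column. Rpl10a was at 474 FPKM in PKI, 293 FPKM in MKI, 385 FPKM in HOMO and 381 FPKM in WT.

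The sequences next to the start of transcription are shown for the members at both ends of the MKI series, 4 of the lowest first and then the 4 highest, from the RefSeq promoter table. Each line holds 60 bases before and 20 bases after the RefSeq start (GRCm38.p6), 5′ to 3′ on the strand of the gene, with the longest unbroken run of C and T in capitals. Where a gene had several windows the first is shown. Of the 77 genes 57 matched the table.
Rps19 (chr7:24884532-24884611, plus strand): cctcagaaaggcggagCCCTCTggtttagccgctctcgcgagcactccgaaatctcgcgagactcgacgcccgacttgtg
Rpl34 (chr3:130730379-130730458, minus strand): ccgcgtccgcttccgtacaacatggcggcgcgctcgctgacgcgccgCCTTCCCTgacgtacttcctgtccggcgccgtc
Rps27 (chr3:90213629-90213708, minus strand): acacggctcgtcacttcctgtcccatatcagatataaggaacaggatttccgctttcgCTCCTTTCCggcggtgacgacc
Rpl13a (chr7:45128726-45128805, minus strand): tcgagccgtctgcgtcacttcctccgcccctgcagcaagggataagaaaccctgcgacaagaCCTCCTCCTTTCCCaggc
Rps25 (chr9:44407654-44407733, plus strand): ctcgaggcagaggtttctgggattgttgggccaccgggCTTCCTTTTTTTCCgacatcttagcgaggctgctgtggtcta
Rps12 (chr10:23787190-23787269, minus strand): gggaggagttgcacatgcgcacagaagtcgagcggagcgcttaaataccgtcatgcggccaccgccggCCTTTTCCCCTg
Rps26 (chr10:128626487-128626566, minus strand): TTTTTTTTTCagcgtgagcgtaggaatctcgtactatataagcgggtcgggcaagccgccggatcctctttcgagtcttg
Rpl22 (chr4:152325666-152325745, plus strand): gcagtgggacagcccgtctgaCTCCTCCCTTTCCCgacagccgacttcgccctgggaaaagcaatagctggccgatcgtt

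A run of C and T of 8 bases or more was present in 7 of these 8 windows, both in genes low and in genes high in MKI, and absent from Rps19. Over the 57 matched members 66.7% had such a run in the 80 bases, with a median longest run of 10 bases, against 34.5% and 6 bases over all 27025 genes of the table. The core bound by ETS factors such as Gabpa, CCGGAA on either strand, lay within the 300 bases of the table's windows in 56.1% of the 57, against 16.7% of all genes. Counting every window of a matched member, in 3 windows the longest run ended in TTCC followed by GG, TTCCGG being the core's other strand. As 57 of 77 is 74.0%, under 80%, these shares describe the matched genes and not the set. RefSeq starts can lie some bases away from the start used in the embryo. The Rpl22 window shown, 1 of 2, begins at 152325666, far inside the gene's RefSeq span from 152324436.

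By chromosome, member medians in MKI are set beside those of all tested genes for some chromosomes. The 14 members on chromosome 7 had a median of -0.91, beside -0.57 over its 921 tested genes. On chromosome 11 the 7 members had 0.49, beside -0.47 over 995 genes. The 4 on chromosome 2 had -1.16, beside -0.16 over 1023 genes. Chromosomes 3, 8 and 18 held 2 members each, with medians of -2.37, -1.30 and -2.28. Their medians over all tested genes were 0.14 (600 genes), -0.31 (652 genes) and 0.11 (335 genes). The 4 X-linked members, Rpl10, Rpl36a, Rpl39 and Rps4x, had a median of -0.13, beside 0.17 over 439 genes. With so few members on a chromosome, no pattern by chromosome can be read from these values. Gene span gave a Spearman's rho of 0.34 with the MKI difference over 12333 genes, and of 0.20 over the 77. Of all tested genes 44.6% lay above WT in MKI, which is the background of the marker counts that follow. The 10 hepatocyte markers summed to 1205 FPKM in MKI, against 680 FPKM in WT (6 of 10 higher). The 14 definitive erythroid markers summed to 2656 FPKM in MKI, against 6349 FPKM in WT (9 of 14 lower and 5 higher). The 3 embryonic globins summed to 2992 FPKM in MKI, against 2954 FPKM in WT (1 of 3 higher). The 10 markers of skeletal and heart muscle summed to 112 FPKM in MKI, against 170.4 FPKM in WT (9 of 10 lower). The part of these in the ribosomal protein values was not tested.

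In HOMO the genes lay close to WT, with 59 of 77 inside the smaller threshold. Past that threshold were 18 in either direction (background 18.5%), 9 of them higher (background 5.67%) and 9 lower, and with trimmed-mean (TMM) factors these were 13 and 6. Over all tested genes TMM factors gave 1178 higher and 1129 lower, against 753 and 1698 on the deposited scale. At 2-fold 1 member was higher (background 0.670%) and 2 were lower (background 0.783%). Large-subunit genes had a median of 0.06 and small-subunit genes one of 0.15. Above WT were 51, where 38.5% of all tested genes were.

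The largest difference of all was in Rpl29 (chromosome 9, 106428889 to 106431568), a heparin-binding member whose loss makes mice small. It was at 98.4 FPKM in PKI, 44.3 FPKM in MKI, 3.91 FPKM in HOMO and 84.8 FPKM in WT, so that HOMO held 0.0461 of the WT level and PKI was close to WT. The gene is short and has many close copies, and its level is therefore uncertain. Its neighbours Dusp7 (23.0 FPKM in HOMO, against 17.7 FPKM in WT) and Acy1 (8.85 FPKM in HOMO, against 8.04 FPKM in WT) were not low in HOMO. Poc1a, the next gene, was at 4.85 FPKM in HOMO, against 5.94 FPKM in WT.

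Other members that differed in HOMO were fewer and closer to WT. Rps18 was at 215 FPKM in PKI, 132 FPKM in MKI, 301 FPKM in HOMO and 152 FPKM in WT, with HOMO the highest column. Rps25, Rps26, Rps12 and Rpl22, high in MKI, were also the other members among the 5 highest in HOMO, with log2 differences of 1.05, 0.63, 0.56 and 0.53. At the low end, after Rpl29, came Rpl21 (-1.20), Rpsa (-0.79), Rpl30 (-0.70) and Rps19 (-0.51). Of all tested genes 38.5% lay above WT in HOMO, which is the background of the marker counts that follow. Definitive erythroid markers summed to 8861 FPKM in HOMO, against 6349 FPKM in WT, but only 8 of 14 were higher and 6 were lower. The 3 embryonic globins summed to 7051 FPKM in HOMO, against 2954 FPKM in WT, with 3 of 3 higher. Hepatocyte markers summed to 852 FPKM in HOMO, against 680 FPKM in WT, with 7 of 10 higher and 3 lower. The part of these markers in the ribosomal protein values was not tested.

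Each insertion can be compared both alone and beside the other one. The maternal insertion was set against its absence in MKI and WT, and again in HOMO and PKI, which share no column with the first pair. In HOMO against PKI 68 of 77 genes were lower where 51.1% of all tested genes were higher, and 50 of the 68 were lower by 20% or more (background 16.8%), with a median of -0.41 beside 0.01 over all tested genes. Of the 77, 46 (59.7%) were lower in both pairs, where 21.1% of all tested genes were. With 51 below WT in MKI and 68 lower in HOMO than PKI, this overlap was nearly fixed by those counts. It therefore cannot show agreement between the pairs. HOMO lay near WT, with a median of 0.08, and PKI above it, at 0.49. The HOMO and PKI pair thus largely restates the PKI difference from WT. At the smaller threshold 32 were lower in both and 0 were higher in both. The 32 are 69.6% of the 46 lower in MKI than WT and 64.0% of the 50 lower in HOMO than PKI. Of all 77 members, 64.9% were lower in HOMO than PKI and 59.7% in MKI than WT, so both shares lay only slightly above those of the whole set. Over all tested genes 695 were lower in both, 12.75% and 31.2% of the same lists, and 266 were higher in both. Quantile normalization left 23 lower at the smaller threshold and 4 higher in HOMO than PKI, beside 1 higher on the deposited scale (background 18.3%). Over all tested genes it gave 2253 lower and 2292 higher, against 2231 and 2425 on the deposited scale. At 2-fold 4 members were lower (background 1.32%) and 0 higher (background 1.55%). The rank correlation of the 2 differences across the 77 genes, which share libraries and are not independent, was 0.33, and across all tested genes -0.26. Rps14 and Rplp1 were low in both pairs, Rps14 by 1.00 and Rplp1 by 0.66 on the log2 scale in HOMO relative to PKI.

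For the paternal insertion the pairs were PKI with WT and HOMO with MKI. In HOMO against MKI 52 of 77 were higher (52.4% of all tested genes), 45 of them 25% or more (background 40.5%), with a median of 0.54 beside 0.06 over all tested genes. Lower by 20% or more were 11 (background 32.7%), which quantile normalization made 26. Over all tested genes it gave 5414 lower, against 4341 on the deposited scale. At 2-fold 23 members were higher (background 19.7%) and 2 lower (background 3.64%). Both pairs were higher for 51 of the 77 (66.2%), where 19.96% of all tested genes were. With 74 above WT in PKI and 52 higher in HOMO than MKI, this overlap was nearly fixed by those counts. It therefore cannot show agreement between the pairs. At the smaller threshold 29 were higher in both, 51.8% of the 56 higher in PKI than WT and 64.4% of the 45 higher in HOMO than MKI. Of all 77 members, 58.4% were higher in HOMO than MKI and 72.7% in PKI than WT, so both shares lay below those of the whole set. Over all tested genes 569 were higher in both, 41.8% and 10.6% of the same lists, so the share of the PKI list was near that of all genes. Across the 77 genes the rank correlation of these differences was -0.03. Between the 2 single insertions, 68 of 77 were lower in MKI than PKI and 9 higher, where 48.2% of all tested genes were higher, with a median of -0.92. At the smaller threshold 56 were lower (background 38.0%) and 5 higher (background 30.1%), or 40 and 22 after quantile normalization. Over all tested genes quantile normalization gave 4118 lower and 5194 higher, against 5042 and 4002 on the deposited scale. At 2-fold 36 members were lower (background 16.6%) and 1 was higher (background 2.55%).

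Some ribosomal protein genes are not taken by the symbol rule. Fau, whose product is cut to release a small-subunit protein, was at 497 FPKM in PKI, 209.6 FPKM in MKI, 465 FPKM in HOMO and 413 FPKM in WT. The scaffold gene Rack1 was at 604 FPKM in PKI, 306 FPKM in MKI, 499 FPKM in HOMO and 477 FPKM in WT. Both were higher in PKI and lower in MKI than WT, whereas Rps3a1, a small-subunit gene, was at 467 FPKM in PKI, 534 FPKM in MKI, 387 FPKM in HOMO and 328 FPKM in WT and thus above WT in MKI.

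Copies and paralogues often differed from their parents. Rps27l, the paralogue of Rps27 and a p53 target, was at 139 FPKM in PKI, 101 FPKM in MKI, 81.6 FPKM in HOMO and 81.9 FPKM in WT, whereas Rps27 was 2-fold lower in MKI. The retrogene Rps27rt was at 122 FPKM in PKI, 43.8 FPKM in MKI, 14.9 FPKM in HOMO and 24.5 FPKM in WT, a log2 difference of 2.29 in PKI. Rpl22l1, the paralogue of Rpl22, was at 109 FPKM in PKI, 37.6 FPKM in MKI, 31.1 FPKM in HOMO and 49.2 FPKM in WT, lower in MKI and HOMO while Rpl22 was higher in both. Rpl36al was at 88.9 FPKM in PKI, 83.5 FPKM in MKI, 60.4 FPKM in HOMO and 66.0 FPKM in WT and Rpl7l1 at 29.6 FPKM in PKI, 21.4 FPKM in MKI, 23.8 FPKM in HOMO and 29.0 FPKM in WT. Of 7 rows named as pseudogene copies 3 passed the filter, and Rps12-ps3 alone was abundant, at 401 FPKM in PKI, 521 FPKM in MKI, 330 FPKM in HOMO and 276 FPKM in WT, highest in MKI and lowest in WT as Rps12 was. Rpl9-ps6 was at 47.0 FPKM in PKI, 17.9 FPKM in MKI, 21.0 FPKM in HOMO and 30.9 FPKM in WT, on the same side of WT as Rpl9 in each. Rpl10-ps3 was low, at 2.88 FPKM in PKI, 1.49 FPKM in MKI, 4.45 FPKM in HOMO and 6.85 FPKM in WT. It lay below WT in PKI, where Rpl10 lay above. Such copies can be nearly identical to their parents, so the split of reads between them is uncertain.

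On the deposited scale, other translation gene lists had PKI medians closer to WT than the ribosomal proteins had. The 5 elongation factor genes had a PKI median of 0.24, an MKI median of -0.23 and a HOMO median of -0.02, and quantile normalization took the PKI value to 0.00. Eef2, which moves the ribosome along the mRNA, was at 647 FPKM in PKI, 311 FPKM in MKI, 711 FPKM in HOMO and 661 FPKM in WT. Eef1g was at 308 FPKM in PKI, 174 FPKM in MKI, 256 FPKM in HOMO and 259.8 FPKM in WT. Both were lowest in MKI. Of 13 further TOP mRNAs, 11 were above WT in PKI (background 40.5%) and 9 in MKI (background 44.6%), with a PKI median of 0.29, an MKI median of 0.43 and a HOMO median of -0.02. Nap1l1, a histone chaperone, was at 130.1 FPKM in PKI, 210.4 FPKM in MKI, 103 FPKM in HOMO and 100.1 FPKM in WT. The poly(A)-binding protein gene Pabpc1 was at 267 FPKM in PKI, 510.4 FPKM in MKI, 288 FPKM in HOMO and 282 FPKM in WT. Naca, which binds emerging polypeptides, was at 209.6 FPKM in PKI, 295 FPKM in MKI, 189 FPKM in HOMO and 171 FPKM in WT. These 3 were highest in MKI, and the MKI median of the 13 lay on the other side of WT from that of the ribosomal proteins under every scaling run.

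**Figure D4:**
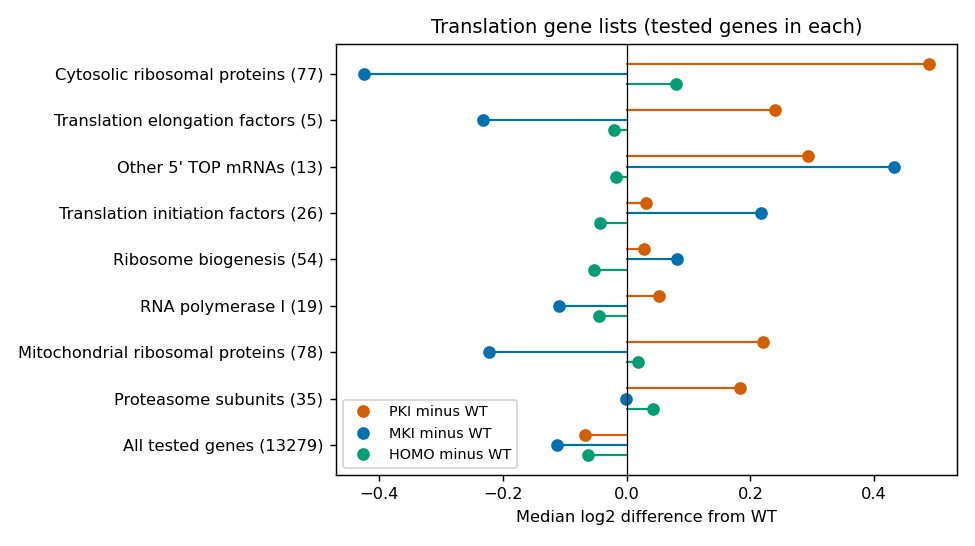
Median log2 difference from WT (x axis) of ribosomal proteins, 7 other lists of translation or housekeeping genes and all tested genes in PKI (orange), MKI (blue) and HOMO (green), with the number of tested genes in brackets. On the deposited scale drawn here, cytosolic ribosomal proteins lie at 0.49 in PKI and at -0.42 in MKI, and the mitochondrial ones at 0.22 and -0.22. After quantile normalization the PKI medians were 0.22 for the cytosolic and 0.27 for the mitochondrial ones, the reverse order. Regulators, copies and ribosomal proteins outside the symbol rule are not drawn.

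Genes that make ribosomes had medians near WT. The 54 ribosome biogenesis genes had a PKI median of 0.03, an MKI median of 0.08 and a HOMO median of -0.05; in MKI 7 of them were lower by 2-fold, a share below the background of 19.1%, and 3 were higher (background 1.22%). Rrp9, needed to process small-subunit RNA, was at 10.2 FPKM in PKI, 1.63 FPKM in MKI, 9.23 FPKM in HOMO and 12.1 FPKM in WT. Grwd1 was at 19.97 FPKM in PKI, 4.94 FPKM in MKI, 17.5 FPKM in HOMO and 17.3 FPKM in WT. MKI was far below the other columns in each. RNA polymerase I subunits and factors, 19 genes, had a PKI median of 0.05, an MKI median of -0.11 and a HOMO median of -0.04, and the MKI value was above 0 under each other scaling, at up to 0.07. Taf1c, of the polymerase I initiation complex, was at 3.78 FPKM in PKI, 0.984 FPKM in MKI, 5.00 FPKM in HOMO and 5.14 FPKM in WT. The 26 initiation factor genes had a PKI median of 0.03, an MKI median of 0.22 and a HOMO median of -0.04. Eif6, which keeps the subunits apart, was at 30.7 FPKM in PKI, 10.6 FPKM in MKI, 32.1 FPKM in HOMO and 30.0 FPKM in WT. As with Taf1c, only MKI was 2-fold away from WT. The PKI and HOMO medians of the biogenesis, polymerase I and initiation lists each changed sign under at least 1 other scaling.

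Mitochondrial ribosomal proteins, which serve a separate ribosome, had medians on the same side of WT as the cytosolic ones. Of 78 genes 70 were above WT in PKI (background 40.5%), 22 of them 25% or more (background 10.2%), with a median of 0.22. After quantile normalization that PKI median was 0.27, above the 0.22 of the cytosolic genes. In MKI 50 were below WT and 28 above, where 44.6% of all tested genes lay above. The 13 lower by 2-fold were a share below the background of 19.1%. The MKI median was -0.22, and -0.06 after quantile normalization. In HOMO the median was 0.02. Mrpl36, of the large mitochondrial subunit, was at 17.3 FPKM in PKI, 1.63 FPKM in MKI, 9.60 FPKM in HOMO and 11.7 FPKM in WT. Proteasome subunits, another set of abundant housekeeping genes, had over 35 genes a PKI median of 0.18 and a HOMO median of 0.04, and 17 were above and 18 below WT in MKI.

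Of 16 regulators of ribosomal protein genes and growth, 0 were past the smaller threshold upwards in PKI (background 10.2%) and 4 downwards (background 20.1%), with a median of -0.14. In MKI 10 were lower (background 41.0%) and 5 higher (background 25.4%), with a median of -0.49, and in HOMO the median was -0.05. The regulator gene Trp53, which encodes p53, was at 36.9 FPKM in PKI, 11.9 FPKM in MKI, 40.2 FPKM in HOMO and 37.6 FPKM in WT. Its target Cdkn1a was at 6.51 FPKM in PKI, 2.53 FPKM in MKI, 8.81 FPKM in HOMO and 7.57 FPKM in WT. Both were lower in MKI alone by 2-fold or more. E2f1, a cell cycle factor, was at 8.75 FPKM in PKI, 3.66 FPKM in MKI, 8.66 FPKM in HOMO and 9.78 FPKM in WT, and it too was lowest in MKI.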

How the data were processed

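Gene levels in whole mouse embryos were taken from the deposited mRNA table, 1 column for each of 4 genotypes. Its header names no unit; the deposited values, which are not whole numbers, were read as the authors' FPKM, since the submitters' processing notes list StringTie 1.3.4d. Those notes also list HISAT2 2.0.4, cutadapt 1.9 and the build GRCm38. DESeq2 and edgeR are named there by the authors, without version or role. Per the labels' protocols, libraries were oligo(dT)-selected, marked on the second strand with dUTP and read as paired ends.

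Of 29639 rows, 22036 had Ensembl IDs, and 22022 of these matched a symbol; 7603 were assembled by the authors and have none. Rows sharing any of 20 symbols were summed. Genes at 1 FPKM or more in at least 2 columns were tested, on log2(FPKM + 0.5), against thresholds of 2-fold and of 25% higher or 20% lower. Model-based tests planned for replicated columns could not be run. Medians and shares were counted as moved past 0.1 on the log2 scale, counts past 1.5-fold. Python 3.11.15, pandas 2.3.3, numpy 2.4.6, scipy 1.17.1 and matplotlib 3.10.9 were used, and the steps were checked on simulated data. Alternatives were other pseudocounts, filters, scalings and member lists. The long non-coding and microRNA tables were not used here.

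Named members were those past 2-fold, the 5 highest and 5 lowest differences in each knock-in column, the 5 highest and lowest levels in WT, fixed genes by role, and the paralogues; other lists gave at most their 4 largest differences. The members and lists were chosen with earlier results of these data known. Some genes that this rule takes are not reported here by name.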

Additional observations from a re-analysis of the deposited data

Results flagged for a closer look

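Rpl31, a large-subunit gene at the exit tunnel, differed in opposite directions, by more than 1.5-fold each, in the comparisons that add the maternal insertion. It was 0.65 higher on the log2 scale in MKI than WT, and its HOMO minus PKI difference was -0.61. The levels were 340.9 FPKM in PKI, 331 FPKM in MKI, 222.5 FPKM in HOMO and 210.6 FPKM in WT. Each is a difference between single columns, and the difference between them was not tested.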

How the results depend on the processing

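No paired analysis was possible because the columns carry no replicate number, and with 1 column per genotype no replicate could be left out. Of 96 alternative values of the medians and shares, 84 moved by less than 0.1 on the log2 scale and 12 by more, and none changed sign where the difference was past the smaller threshold. Quantile normalization took the median of the ribosomal protein genes to 0.22 for PKI minus WT, -0.23 for MKI minus WT, -0.20 for HOMO minus PKI, 0.22 for HOMO minus MKI and -0.37 for MKI minus PKI, and their share of summed FPKM to 9.33% in PKI and 8.30% in MKI. TMM factors gave 0.59 for PKI minus WT and -0.29 for MKI minus WT. Rescaling columns to equal totals gave -0.26 for MKI minus WT, 0.36 for HOMO minus MKI and -0.67 for MKI minus PKI. The cause of these moves was not tested. Counts that moved by more than 1.5 times follow, with the setting in brackets. In PKI against WT, among ribosomal protein genes, 56 higher by 25% became 26 (quantile) and 2 higher by 2-fold became 0 (quantile), 5 (TMM), 1 (equal totals). In MKI against WT, among ribosomal protein genes, 17 higher by 25% became 27 (quantile). In HOMO against WT, among ribosomal protein genes, 1 higher by 2-fold became 0 (quantile), 2 (TMM) and 2 lower by 2-fold became 1 (members removed). In HOMO against PKI, among ribosomal protein genes, 1 higher by 25% became 3 (no filter), 4 (quantile), 50 lower by 20% became 23 (quantile) and 4 lower by 2-fold became 2 (equal totals), 2 (members removed). In HOMO against MKI, among ribosomal protein genes, 11 lower by 20% became 26 (quantile), 19 (TMM), 22 (equal totals) and 2 lower by 2-fold became 4 (quantile), 1 (members removed). In MKI against PKI, among ribosomal protein genes, 5 higher by 25% became 22 (quantile) and 1 higher by 2-fold became 3 (quantile). In PKI against WT, among all tested genes, 1360 higher by 25% became 893 (filter at 5), 2109 (TMM), 2666 lower by 20% became 1363 (filter at 5), 93 higher by 2-fold became 48 (filter at 5) and 193 lower by 2-fold became 349 (pseudocount 0.1), 113 (pseudocount 1), 79 (filter at 5), 127 (quantile). In MKI against WT, among all tested genes, 3372 higher by 25% became 5171 (quantile), 5450 lower by 20% became 3613 (filter at 5), 162 higher by 2-fold became 86 (filter at 5), 576 (quantile), 313 (TMM), 349 (equal totals) and 2532 lower by 2-fold became 1648 (quantile). In HOMO against WT, among all tested genes, 753 higher by 25% became 355 (filter at 5), 1178 (TMM), 1698 lower by 20% became 866 (filter at 5), 1129 (TMM), 89 higher by 2-fold became 45 (filter at 5) and 104 lower by 2-fold became 158 (pseudocount 0.1), 61 (no filter), 40 (filter at 5). In HOMO against PKI, among all tested genes, 2425 higher by 25% became 1348 (filter at 5), 206 higher by 2-fold became 327 (pseudocount 0.1), 135 (pseudocount 1), 87 (filter at 5) and 175 lower by 2-fold became 97 (filter at 5). In HOMO against MKI, among all tested genes, 484 lower by 2-fold became 303 (filter at 5), 1017 (quantile), 1050 (equal totals). In MKI against PKI, among all tested genes, 339 higher by 2-fold became 170 (filter at 5), 693 (quantile), 952 (equal totals). Depth is unknown, and it limits low genes such as Rpl21 most.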
